A study of Mus musculus with 16 samples.

Results

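The collagen genes were taken as every gene of the array whose name reads Col, a number, a and a number, which gave 40 genes of 28095, measured by 79 probes. Each gene was followed through its brightest probe. By class they comprised 11 fibrillar genes, 9 of the basement membrane (collagens IV, VII, XV and XVIII), 6 that build networks or beaded filaments (VI, VIII and X), 9 fibril-associated genes, 4 transmembrane genes and Col28a1. Another 5 array names belong to collagens but fall outside the rule and were not counted: Dvwa, Gm7455 and Emid2 are the array's older names for Col6a4, Col6a5 and Col26a1, and 2 transcript identifiers stand for Col6a3.

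RNA came from aortas of female C57BL/6 mice that were ApoE deficient, which makes them prone to atherosclerosis. All had been ovariectomized at 4 to 5 weeks of age, received a subcutaneous pellet 2 weeks later and ate a high-fat Western-type diet during treatment. The pellets, made to last 90 days, held 1 of 2 progestins, medroxyprogesterone acetate (MPA) or NET-A (norethisterone acetate), or only placebo; aortas were removed after 78 to 90 days, from behind the arch to near the branches to the kidneys. The labels give 4 groups of 4 samples, each on its own one-colour array: MPA, NET-A and 2 placebo groups titled M and N. These were taken as the placebo groups of MPA and NET-A from the letters and the shared slides. The labels do not say so in words. Every placebo mouse therefore also lacked ApoE and ovarian hormones, these samples hold no group of intact mice, and the labels state neither the doses nor whether each sample was 1 animal, so each p-value reflects only how far these samples spread.

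Collagens are triple helices of 3 chains. Fibrillar collagens I, III and V form the load-bearing fibrils of the aortic media and adventitia and the fibrous cap of a plaque. Collagen IV is the sheet of the basement membrane around smooth muscle cells and under the endothelium, and collagens VI and VIII form filaments and lattices at the cell surface. In the artery smooth muscle cells and fibroblasts are their main source. Whole aorta was measured, so fewer cells of a type and less RNA per cell cannot be told apart.

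Levels are given as log2 of the background-corrected signal relative to the 75th percentile of the same array, so 0 is the brightness of a probe at that percentile. The share of spots well above background ran from 46.3% to 60.6% in the MPA experiment and from 62.3% to 78.5% in the NET-A experiment, and 26 of the 40 collagens were well above background on all 16 arrays. The 6 smooth muscle and 6 endothelial markers checked the tissue: their summed levels ran from 10.1 to 11.2 and from 4.51 to 5.68 over the arrays. Of 6 fibroblast markers, 5 had an estimate below 0 under MPA (median -0.24; summed level 8.90 to 9.80 in placebo, 9.11 to 9.56 in MPA arrays) and 5 above 0 under NET-A (median 0.24; 7.85 to 8.31 and 7.86 to 7.99). The remaining 1 had the largest change of the list under NET-A, -0.80, with every NET-A array below every placebo array (limma, adjusted p = 0.71). All 6 macrophage markers had estimates below 0 in both (medians -0.49 and -0.54). Of 7 skeletal muscle markers 5 were tested under MPA, all with estimates below 0 (median -2.27). The summed level of the 7 ran from 2.68 to 6.08 in placebo and from 2.03 to 2.38 in MPA arrays, apart. On placebo replicate 3 of MPA, the lowest placebo array for Col1a1, Col1a2 and Col3a1, this sum was 6.08 against 2.03 to 3.25 on the other 7. Of 5 neutrophil markers the summed level ran from 2.42 to 4.43 in placebo and from 5.20 to 7.00 in MPA arrays (S100a9 2.55 ± 0.51), and from 1.70 to 2.53 and 2.69 to 4.25 in the NET-A experiment (S100a9 1.25 ± 0.37), apart in both. Markers are given by the sum of their signals, on the same log2 scale, and none passed the threshold. The adipocyte and brown adipocyte sums were highest in the NET-A experiment on NET-A replicate 2 (8.34 and 9.47) and lowest on NET-A replicate 1 (6.20 and 6.93). For Col1a1, Col1a2 and Col3a1 replicate 2 was the lowest and replicate 1 the highest NET-A array. Of the MPA arrays replicate 2, the lowest for Col1a1 and Col3a1, had the lowest of both sums (6.44 and 9.62). The part of these cell types in the collagen values was not tested.

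Neither progestin changed a collagen gene past the threshold. A gene was tested when its probe was well above background on at least 4 of the 8 arrays of an experiment. Under MPA 33 collagens were tested and 0 passed limma's Benjamini-Hochberg threshold of 0.05, as did 0% of all 15123 genes tested. Under NET-A 37 were tested and 0 passed, again beside 0% of 20909 genes. With the brightest probes there were, at an unadjusted p under 0.05, 3 collagens under MPA, all lower (6.12% of all genes; 2.66% lower and 3.46% higher), and 2 under NET-A, both higher (6.15% of all genes; 3.62% lower and 2.53% higher). Dimmer probes reached that level in both directions under NET-A, as given below. The 4 treated and 4 placebo arrays overlapped for every tested gene of the 40 in both experiments, whereas they were apart for 3.78% of all genes under MPA (1.45% lower, 2.33% higher) and 3.89% under NET-A (2.28% lower, 1.61% higher). Of the names outside the rule, the dimmer of the 2 for Col6a3 (chr1:92699157-92699216, mm9) did not overlap under NET-A: it read -0.41, -0.49, -0.67 and -0.58 in placebo and -1.07, -1.40, -1.20 and -0.99 in treated arrays. Every NET-A array was below every placebo array, and the change was -0.63 ± 0.13 (unadjusted p = 0.0013, adjusted p = 0.61), with 0.26 ± 0.28 under MPA. The brighter name (chr1:92663663-92663722, mm9) overlapped in both, with changes of -0.31 ± 0.29 and -0.15 ± 0.19.

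The signs of the estimates were mixed in both experiments. Under MPA 19 of the 33 tested collagens had an estimate below 0 (57.6%, against 52.4% of all genes, 47.6% being above 0) and the median was -0.08, against -0.01 over all genes. Under NET-A 24 of 37 did (64.9%, against 54.4%, with 45.6% above 0), with a median of -0.07 against -0.02. The 95% interval of the change, not corrected for the number of genes, lay within 1 log2 unit on either side of 0 for 23 of the 33 collagens under MPA and 30 of the 37 under NET-A. For those genes a 2-fold change lay outside the interval.

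**Figure D1:**
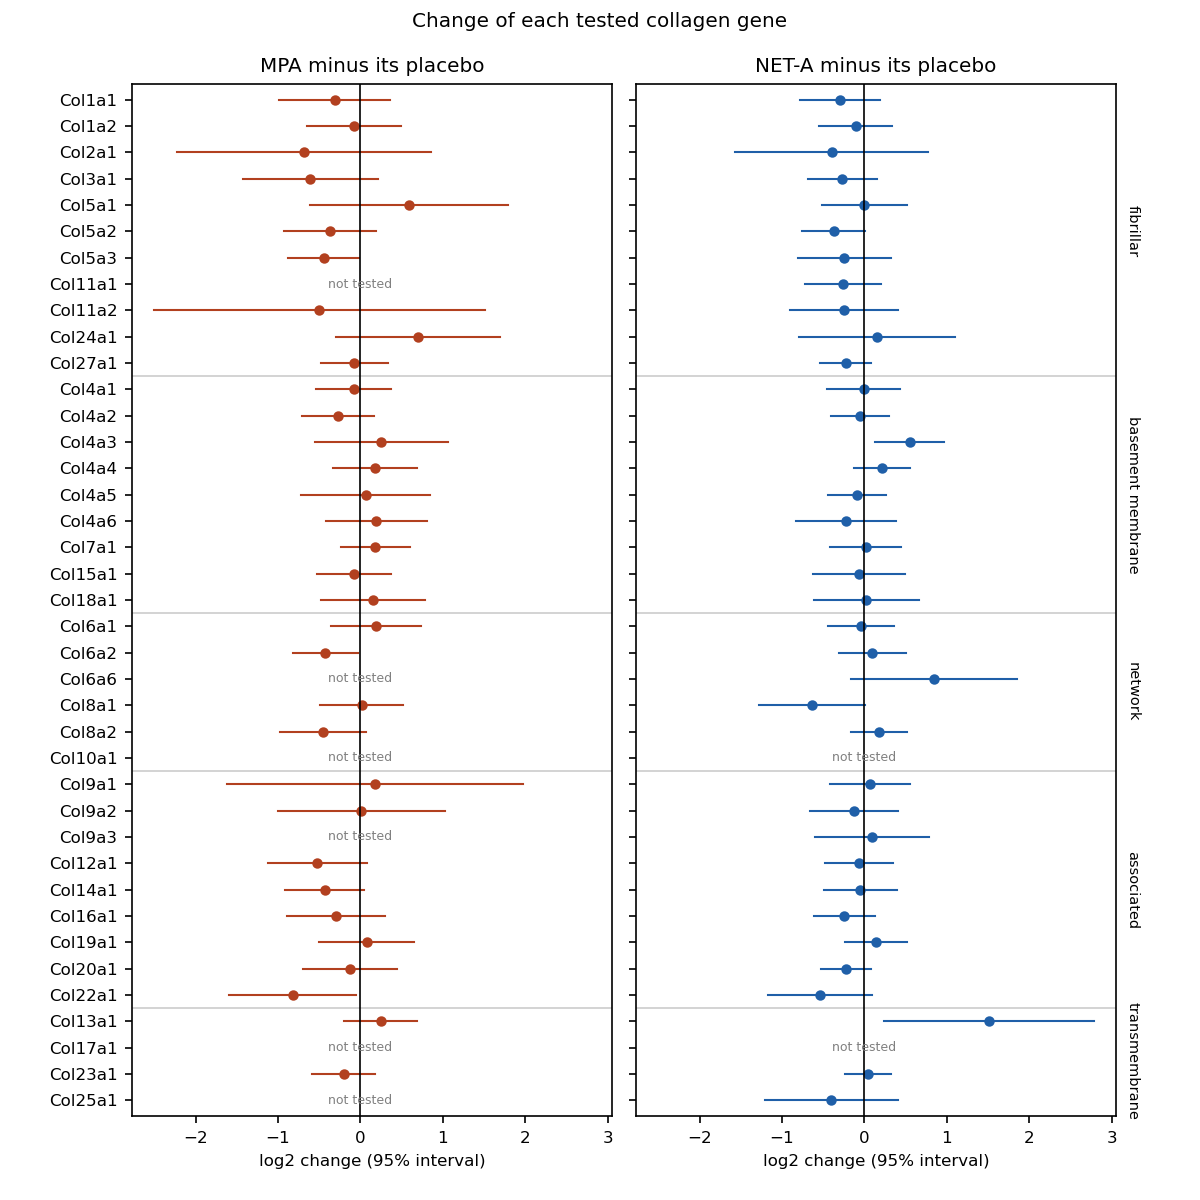
Log2 change of each collagen gene (horizontal axis) with its unadjusted 95% interval from limma, for MPA (left) and NET-A (right) against their own placebo groups, 4 arrays per group; genes (vertical axis) are ordered by class, and genes too dim to test are marked. Nearly all intervals cross 0; those that do not are Col22a1, Col5a3 and Col6a2 under MPA and Col4a3 and Col13a1 under NET-A.

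Of the fibrillar genes, Col1a1 and Col1a2 encode the 2 chains of collagen I, the chief fibril of the vessel wall. The brightest Col1a1 probe lies at chr11:94813075-94813134 (mm9) and read 8.03, 8.58, 7.32 and 8.12 in the placebo arrays of MPA and 8.30, 7.34, 7.61 and 7.54 under MPA. Placebo replicate 3 was the lowest of the 8, below every treated array, while the other 3 placebo arrays stood above 3 of the 4 treated ones. The change was -0.31 ± 0.30 (SE, adjusted p = 0.89; 95% interval -0.98 to 0.35). In the NET-A experiment the placebo arrays read 5.95, 5.82, 5.76 and 6.26 and the treated ones 6.10, 5.20, 5.56 and 5.76, a change of -0.29 ± 0.21 (adjusted p = 0.92; interval -0.78 to 0.19). Here NET-A replicates 2 and 3 were below every placebo array, replicate 4 was level with the lowest, and replicate 1 was above 3 of the 4. Averaging on each array the Col1a1 probes not left out as outliers gave changes of -0.08 under MPA and -0.74 under NET-A. A spot left out shifts the average of its array. Under NET-A the 3 probes on their own gave -0.29, -0.23 and -0.85, so the averaged value is not the mean of those changes. Normexp background correction gave -0.72 under MPA and -0.14 under NET-A.

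Col1a2 had smaller estimates with its brightest probe (chr6:4490619-4490678, mm9). It read 8.52, 8.62, 7.68 and 8.02 in the placebo group of MPA and 8.54, 8.20, 8.01 and 7.78 under MPA, a change of -0.08 ± 0.25. The placebo arrays of NET-A were nearly equal at 7.93, 7.91, 7.81 and 7.87, whereas the treated arrays spread from 7.26 to 8.21 and the change was -0.11 ± 0.19. The sign of both values turned when 1 array was left out: without placebo replicate 2 the MPA change was 0.06, and without NET-A replicate 2 the NET-A change was 0.06. A second probe of Col1a2 gave -0.03 ± 0.15 under MPA and -0.52 ± 0.25 under NET-A.

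Col3a1 encodes the chain of collagen III, which shares fibrils with collagen I and is abundant in distensible arteries. Its probe (chr1:45405589-45405648, mm9) read 8.65, 8.88, 7.36 and 8.59 in the placebo group of MPA and 8.43, 7.26, 7.78 and 7.58 under MPA. Placebo replicate 3 was again the low array of its group. The change was -0.61 ± 0.36 (0.656 of the placebo level, adjusted p = 0.86; interval -1.43 to 0.21) and ranged from -0.95 without placebo replicate 3 to -0.44 without placebo replicate 2. In the NET-A experiment the placebo arrays read 6.56, 6.43, 6.66 and 6.97 and the treated ones 6.80, 6.20, 6.29 and 6.27, a change of -0.27 ± 0.18 (adjusted p = 0.92). NET-A replicate 1 stood apart above the other 3, which were all below the lowest placebo array. Averaging all probes gave Col3a1 changes of -0.03 under MPA and -0.74 under NET-A, and normexp gave -1.01 and -0.10.

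**Figure D2:**
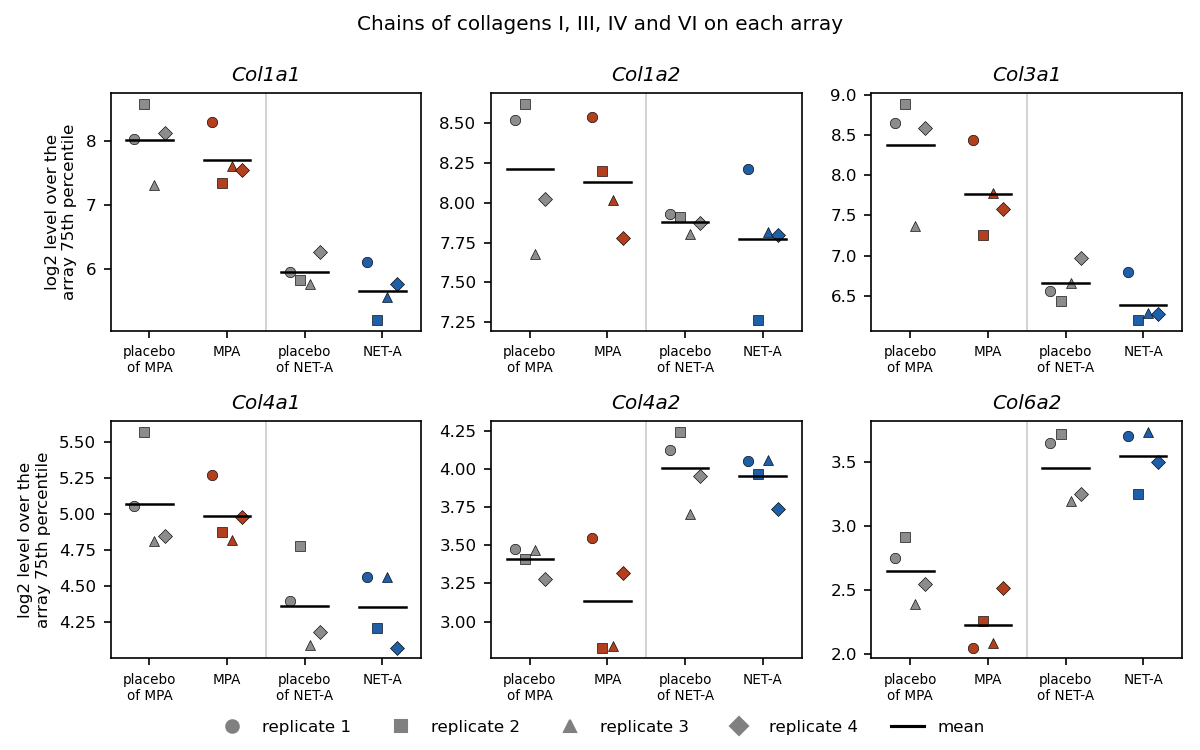
Log2 level over the 75th percentile of the array (vertical axis, scaled per gene) of Col1a1, Col1a2, Col3a1, Col4a1, Col4a2 and Col6a2 on each of the 16 arrays, by group; marker shape gives the replicate and the line the group mean. Placebo replicate 3 of the MPA experiment is the lowest placebo array for Col1a1, Col1a2 and Col3a1, and NET-A replicate 1 is the highest NET-A array for the same genes.

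Col1a1 and Col3a1 varied together from array to array. Over the 8 arrays of the MPA experiment, Col1a1 and Col3a1 correlated with r = 0.955 (exact permutation p = 0.001, adjusted p = 0.013) and rho = 0.881 (adjusted p = 0.029). In the NET-A experiment r was 0.869 (exact permutation, adjusted p = 0.014) and rho 0.810 (adjusted p = 0.052). Without the 2 arrays farthest from the median of Col1a1, r was 0.935 and 0.772, and with group and slide means removed it was 0.952 and 0.807. Col1a1 and Col1a2 correlated with r = 0.784 and 0.822, rho 0.810 and 0.762, neither r below 0.05 after adjustment (exact permutation, adjusted p = 0.061 and 0.058). The family held 12 tests, 6 chain pairs in each experiment. All pairs share array, scaling and RNA preparation.

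The stretches just upstream of the starts of these genes are shown for the partners of Col1a1 in the pairs above; Col1a2 and Col3a1 were not tested as a pair. They come from RefSeq (GRCm38.p6); the table gave 35 windows for 32 of the 40 collagens and none for Col1a1. For Col1a2 the 250 bases are chr6:4505368-4505617 and for Col3a1 chr1:45311288-45311537, both on the plus strand, with the CCAAT box, an element bound by the factor NF-Y, in capitals:
Col1a2: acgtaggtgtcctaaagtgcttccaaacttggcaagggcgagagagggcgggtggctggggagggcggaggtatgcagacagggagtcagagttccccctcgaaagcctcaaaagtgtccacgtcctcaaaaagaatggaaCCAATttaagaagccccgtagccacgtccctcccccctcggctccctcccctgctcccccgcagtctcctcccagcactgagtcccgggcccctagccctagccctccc
Col3a1: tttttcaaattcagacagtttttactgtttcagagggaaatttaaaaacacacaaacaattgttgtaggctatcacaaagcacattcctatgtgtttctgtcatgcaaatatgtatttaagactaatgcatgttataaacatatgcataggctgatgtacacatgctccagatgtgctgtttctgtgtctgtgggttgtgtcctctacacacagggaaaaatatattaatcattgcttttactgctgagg
The CCAAT box was searched as CCAAT on both strands (ATTGG on the other). Col1a2 held 1 and Col3a1 none in this window. Over the 250 bases it occurred in 12 of the 35 collagen windows (34.3%) and in 33.8% of all 32851 RefSeq windows. The GC box read by Sp1, GGGCGG or on the other strand CCGCCC, occurred in 20 of the 35 (57.1%), which belong to 19 genes, against 32.7% of all windows. TGTTCT, on the other strand AGAACA, is part of the element that steroid receptors bind and occurred in 2, Col20a1 and Col9a1 (5.71%, against 16.1%). A match is a match of letters and not a bound site.

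The estimates of the other fibrillar genes ran from -0.68 ± 0.68 (Col2a1) to 0.70 ± 0.44 (Col24a1, the highest of the 33 collagens tested) under MPA and from -0.40 ± 0.51 (Col2a1) to 0.15 ± 0.41 (Col24a1) under NET-A. Collagen V starts fibrils and sets their width; its chains are Col5a1, Col5a2 and Col5a3. Col5a3 (chr9:20574592-20574651, mm9) had the smallest p of the class under MPA, with placebo values of -0.76, -0.30, -0.35 and -0.18 and MPA values of -1.16, -0.51, -0.91 and -0.80, a change of -0.45 ± 0.19 (unadjusted p = 0.044, adjusted p = 0.81). Of the MPA arrays 3 were below every placebo array and replicate 2 was not. Col5a2 (chr1:45433621-45433680, mm9) had the smallest p of the brightest probes of the class under NET-A, with placebo values of 3.02, 3.29, 3.22 and 3.71 and NET-A values of 3.08, 2.85, 2.81 and 3.01, a change of -0.37 ± 0.17 (adjusted p = 0.82). All but NET-A replicate 1 lay below the lowest placebo array. Col5a2 gave a change of -0.37 ± 0.25 under MPA as well. Col5a1 (chr2:27892892-27892951, mm9) rested on 1 array: it read 2.59, 0.33, 2.68 and 3.15 in the placebo group of MPA against 2.56, 3.01, 2.82 and 2.71 under MPA, so that its estimate of 0.59 ± 0.53 came with 1 placebo value more than 2 log2 units below the others. In the NET-A experiment Col5a1 read 3.07, 3.27, 3.13 and 3.10 in placebo and 3.44, 2.55, 3.57 and 3.01 in treated arrays, with 2 treated arrays above and 2 below all placebo values. Col5a1 and Col5a2 gave r = -0.521 in the MPA and 0.053 in the NET-A experiment (exact permutation adjusted p = 0.30 and 0.93).

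As a class, 8 of the 10 fibrillar genes tested under MPA had an estimate below 0, with a median of -0.34. Under NET-A 10 of 11 did, with a median of -0.25, but 1 of these, Col5a1, was at -0.00015 ± 0.22; Col24a1, a fibrillar collagen of bone and cornea, was above 0. Among all genes 52.4% and 54.4% of estimates were below 0. The genes of the class are not independent of each other, as the correlation of collagens I and III showed. The MPA median was -0.09 without placebo replicate 4 and -0.47 without placebo replicate 3, and -0.26 and -0.32 within slides 1 and 2. The NET-A median was -0.14 without placebo replicate 4 and -0.46 within slide 5, the only slide there with 2 arrays of each group. Placebo replicate 4 of NET-A was the highest of the 8 arrays for 6 of the 11 fibrillar genes, and its macrophage marker sum was the highest too, 4.66 against 3.14 to 3.76; the part of macrophages was not tested. Averaging all probes of a gene instead of taking the brightest gave -0.06 for MPA and -0.35 for NET-A.

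**Figure D3:**
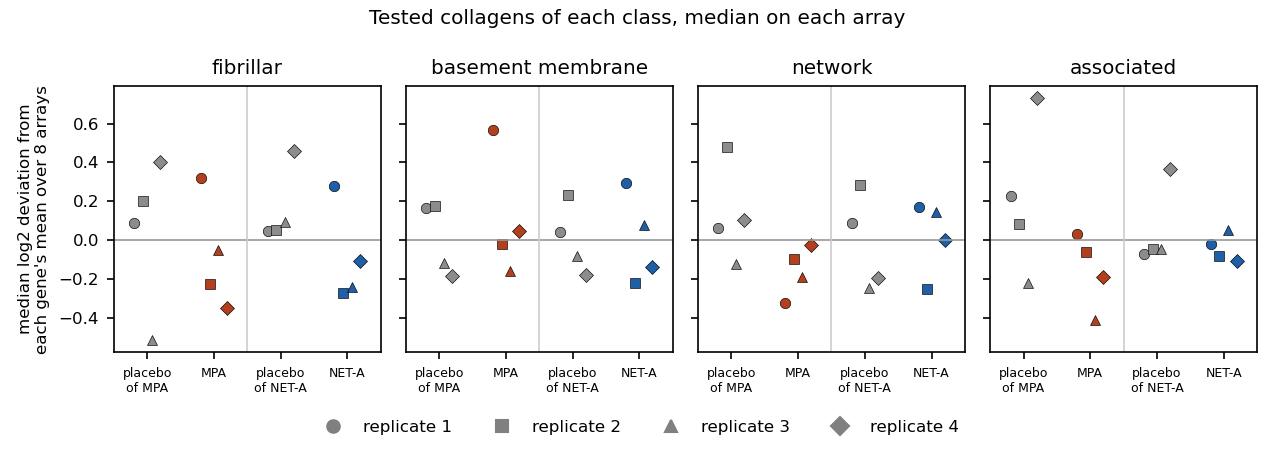
Median over the tested genes of a class of each gene's deviation from its own mean over the 8 arrays of its experiment (vertical axis, log2), for 4 classes and each array by group; marker shape gives the replicate. For the fibrillar class the placebo arrays of MPA run from -0.52 (replicate 3) to 0.40 (replicate 4) and the MPA arrays from -0.35 to 0.32, so the MPA arrays lie within the placebo range; in the NET-A experiment the placebo arrays run from 0.04 to 0.46 and the NET-A arrays from -0.27 to 0.28.

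With their brightest probes the basement membrane genes gave estimates from -0.27 to 0.26 under MPA and from -0.23 to 0.55 under NET-A. Col4a1 and Col4a2 encode the 2 chains of the common collagen IV of vessels. Col4a1 (chr8:11199009-11199068, mm9) read 5.06, 5.57, 4.81 and 4.85 in the placebo group of MPA and 5.27, 4.88, 4.83 and 4.98 under MPA (change -0.08 ± 0.20; interval -0.54 to 0.37). The NET-A experiment gave 4.40, 4.78, 4.09 and 4.18 without and 4.56, 4.21, 4.56 and 4.08 with the hormone (change -0.01 ± 0.19; interval -0.45 to 0.43). In each experiment the values of both groups were interleaved. Col4a2 (chr8:11448840-11448899, mm9) read 3.48, 3.41, 3.47 and 3.28 in the placebo group of MPA, a narrow span, and 3.55, 2.83, 2.84 and 3.32 under MPA. The change was -0.27 ± 0.19 (adjusted p = 0.86), the smallest p of the class under MPA, and came from MPA replicates 2 and 3. A second probe of Col4a2 gave -0.41 ± 0.17 under MPA (limma, unadjusted p = 0.039, adjusted p = 0.73) and 0.08 ± 0.27 under NET-A. Under NET-A Col4a2 read 4.13, 4.24, 3.70 and 3.95 in placebo and 4.05, 3.97, 4.06 and 3.74 in treated arrays, a change of -0.05 ± 0.15. The pair correlated over the NET-A experiment (r = 0.889, exact permutation adjusted p = 0.013; rho = 0.881), with r = 0.661 once group and slide means were removed. In the MPA experiment r was 0.486 (exact permutation adjusted p = 0.30).

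Col4a3 and Col4a4 encode chains of the second collagen IV network, best known from the kidney filter, where their loss causes Alport syndrome; they lie head to head and are transcribed away from each other. Under NET-A Col4a3 (chr1:82717775-82717834, mm9) had the smallest p of the brightest probes of the 40 collagens (the dimmer Col6a3 name had a smaller one): the placebo arrays read -2.90, -3.13, -2.83 and -3.35 and the NET-A arrays -2.41, -2.38, -2.31 and -2.92. All NET-A arrays but replicate 4 stood above every placebo array. The change was 0.55 ± 0.18 (1.46 times the placebo level; unadjusted p = 0.017, adjusted p = 0.68), and a second probe of the gene gave 0.84 ± 0.27. Col4a4 (chr1:82447298-82447326, mm9) read 0.73, 0.83, 0.47 and 0.67 in placebo and 0.98, 0.56, 1.01 and 1.01 under NET-A, a change of 0.21 ± 0.15 (adjusted p = 0.92), and its second probe gave 0.43 ± 0.17. As with Col4a3, 3 of the 4 NET-A arrays were above all placebo arrays; the low one was replicate 2. Under MPA the changes were 0.26 ± 0.36 and 0.18 ± 0.23, and the second Col4a4 probe gave -0.72 ± 0.43. Background correction by normexp put the NET-A change of Col4a3, a dim gene, at -0.07. In RefSeq 71 bases separate the 2 starts, shown because both genes had estimates above 0 with both probes under NET-A (chr1:82586850-82586920, GRCm38.p6, plus strand, reading toward Col4a3):
Col4a4 to Col4a3: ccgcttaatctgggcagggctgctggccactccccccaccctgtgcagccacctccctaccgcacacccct
The CCAAT box and the GC box as spelled out above are absent from this stretch.

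Across the class, 6 of the 9 basement membrane genes had an estimate above 0 under MPA (median 0.15) and 4 of 9 under NET-A (median -0.01). The MPA median was -0.03 without placebo replicate 4 and -0.01 without MPA replicate 1, the array that was highest of the 8 for 6 of the 9 genes. Col18a1, whose C-terminal fragment is endostatin, gave a change of 0.15 ± 0.28 under MPA and 0.02 ± 0.28 under NET-A, and Col15a1, its close relative, one of -0.08 ± 0.20 and -0.07 ± 0.24. Col4a6 on the X chromosome, a chain found in smooth muscle basement membranes, read 3.92, 4.13, 3.20 and 3.39 in the placebo group of MPA and 4.38, 3.75, 3.90 and 3.39 under MPA (change 0.19 ± 0.27). In the NET-A experiment it read 3.76, 4.12, 4.14 and 3.34 without and 4.02, 2.99, 3.74 and 3.71 with the hormone (change -0.23 ± 0.27), and the groups were interleaved in both. The adjacent Col4a5 gave a change of 0.07 ± 0.35 and -0.09 ± 0.15. Col7a1, the anchoring fibril of skin, gave a change of 0.18 ± 0.18 and 0.01 ± 0.19.

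Among the network genes, Col6a2 encodes a chain of collagen VI, the beaded filament around cells. Of the brightest probes of all tested collagens, its probe (chr10:76058931-76058990, mm9) had the smallest p under MPA: it read 2.75, 2.92, 2.39 and 2.55 in placebo and 2.05, 2.26, 2.09 and 2.51 under MPA. All MPA arrays but replicate 4 were below the lowest placebo array. The change was -0.42 ± 0.17 (0.745 of the placebo level; unadjusted p = 0.037, adjusted p = 0.80), with -0.68 within slide 1 and -0.17 within slide 2, and its second probe gave -0.15 ± 0.20. Col6a1, whose chain is part of the same molecule, gave a change of 0.19 ± 0.24 with 3 placebo arrays, since the spot of placebo replicate 2 was an outlier and was left out. Under NET-A Col6a2 gave a change of 0.10 ± 0.18 and Col6a1 one of -0.04 ± 0.18. The 2 genes correlated over the NET-A arrays (r = 0.838, exact permutation adjusted p = 0.028), where arrays of slides 3 and 4 read higher than those of slide 5; with group and slide means removed r was 0.365. In the MPA experiment r was -0.366 over 7 arrays (exact permutation adjusted p = 0.57).

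Collagen VIII is the short-chain lattice collagen of endothelium and of activated smooth muscle, with chains from Col8a1 and Col8a2. Col8a1 (chr16:57627033-57627092, mm9) read 3.58, 3.78, 3.47 and 4.41 on the NET-A experiment's placebo arrays and 3.66, 2.76, 3.44 and 2.83 under NET-A. NET-A replicates 2 and 4, both on slide 5, were the lowest and placebo replicate 4, on the same slide, the highest. The change was -0.64 ± 0.28 (0.643 of the placebo level; unadjusted p = 0.051, adjusted p = 0.81), its second probe gave -0.79 ± 0.33, and within slide 5 the change was -1.14. Under MPA it was 0.01 ± 0.22, and the second Col8a1 probe gave -0.37 ± 0.30. Col8a2 (chr4:125991441-125991500, mm9) read -1.35, -0.50, -1.11 and -1.16 in placebo and -1.63, -1.36, -1.85 and -1.12 under MPA, a change of -0.46 ± 0.23. All MPA arrays but replicate 4 were below the lowest placebo array, replicate 2 barely so. In the NET-A experiment Col8a2 read -1.45, -1.80, -1.69 and -1.55 in placebo and -1.18, -1.65, -1.59 and -1.35 in treated arrays, a change of 0.18 ± 0.15, with replicates 1 and 4 of NET-A above all placebo arrays. For Col8a1 and Col8a2 r was -0.038 and -0.074 (exact permutation adjusted p = 0.93 in both), but 0.642 and -0.313 without the 2 arrays farthest from the Col8a1 median, and 0.056 and 0.566 with group and slide means removed. Col6a6, a chain of a minor form of collagen VI, was well above background on none of the 8 arrays of the MPA experiment and gave a change of 0.85 ± 0.44 under NET-A. Col10a1, the collagen of hypertrophic cartilage, was too dim to test in either experiment.

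The fibril-associated collagens decorate the fibril surface. Col22a1, a collagen of tissue junctions such as that of muscle and tendon, had the lowest estimate of all collagens under MPA. Its probe (chr15:71628920-71628979, mm9) read -2.23, -2.09, -2.87 and -1.71 in placebo and -3.08, -2.17, -3.56 and -3.39 under MPA, a change of -0.82 ± 0.34 (unadjusted p = 0.038, adjusted p = 0.80). MPA replicate 2 lay within the placebo range, and only 3 placebo and 2 MPA arrays were well above background. Under NET-A it read -1.19, -1.20, -2.20 and -1.09 in placebo and -1.82, -2.31, -1.64 and -2.09 in treated arrays, a change of -0.54 ± 0.27 (adjusted p = 0.85). Normexp background correction turned the MPA value to 0.46. Skeletal muscle markers had estimates below 0 under MPA (all 5 tested) and above 0 under NET-A (all 7). The part of muscle in the Col22a1 values was not tested. Col12a1 and Col14a1 encode collagens that bind collagen I fibrils in loaded tissue. Col12a1 read -1.36, -1.14, -2.29 and -1.66 in the placebo group of MPA and -1.84, -2.16, -2.55 and -2.01 under MPA (change -0.53 ± 0.27). Its NET-A experiment gave -1.69, -1.59, -1.61 and -1.11 in placebo and -1.47, -1.56, -1.35 and -1.90 in treated arrays (change -0.07 ± 0.18). Placebo replicate 3 of MPA was below 3 of the 4 MPA arrays, and the NET-A groups were interleaved. Col14a1 gave changes of -0.43 ± 0.21 under MPA and -0.05 ± 0.19 under NET-A. Of the class, 5 of 8 tested genes had an estimate below 0 under MPA (median -0.21) and 6 of 9 under NET-A (median -0.07).

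Of the transmembrane collagens, Col13a1, a cell-adhesion collagen also found at neuromuscular junctions, had the largest estimate of any collagen under NET-A. Its probe (chr10:61301277-61301336, mm9) read -1.05, -0.78, -0.50 and -2.54 in placebo and 0.08, -0.75, 1.44 and 0.41 under NET-A. NET-A replicate 2 lay within the placebo range and placebo replicate 4 lay far below the other placebo arrays. The change was 1.51 ± 0.56 (2.85 times the placebo level; unadjusted p = 0.026, adjusted p = 0.74), 1.07 without placebo replicate 4 and 0.65 when all probes of the gene were averaged. Under MPA Col13a1 read -2.43, -2.45, -2.57 and -2.03 in placebo and -2.48, -1.74, -2.21 and -2.09 in treated arrays, a change of 0.25 ± 0.20. The markers of skeletal muscle listed for this tissue (Acta1, Ckm, Myh2, Myh4, Tnnc2, Tnni2 and Mylpf) had all 7 estimates above 0 under NET-A; their summed level ran from 5.27 to 5.80 in placebo and from 5.33 to 5.86 in NET-A arrays. That sum was mostly Acta1 (0.04 ± 0.19); Mylpf gave a change of 1.15 ± 0.25, with every NET-A array above every placebo array (adjusted p = 0.61). Tnnc2, Myh4 and Myh2 gave changes of 1.26 ± 0.38, 1.87 ± 0.67 and 1.96 ± 0.74. None passed, and the part of muscle in the Col13a1 result was not tested. Col23a1 gave a change of -0.20 ± 0.17 under MPA and 0.04 ± 0.12 under NET-A. Col25a1 was well above background on 2 MPA arrays and no placebo array and was not tested there; under NET-A it gave a change of -0.40 ± 0.35. Col17a1, of skin hemidesmosomes, was not tested in either experiment.

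**Figure D4:**
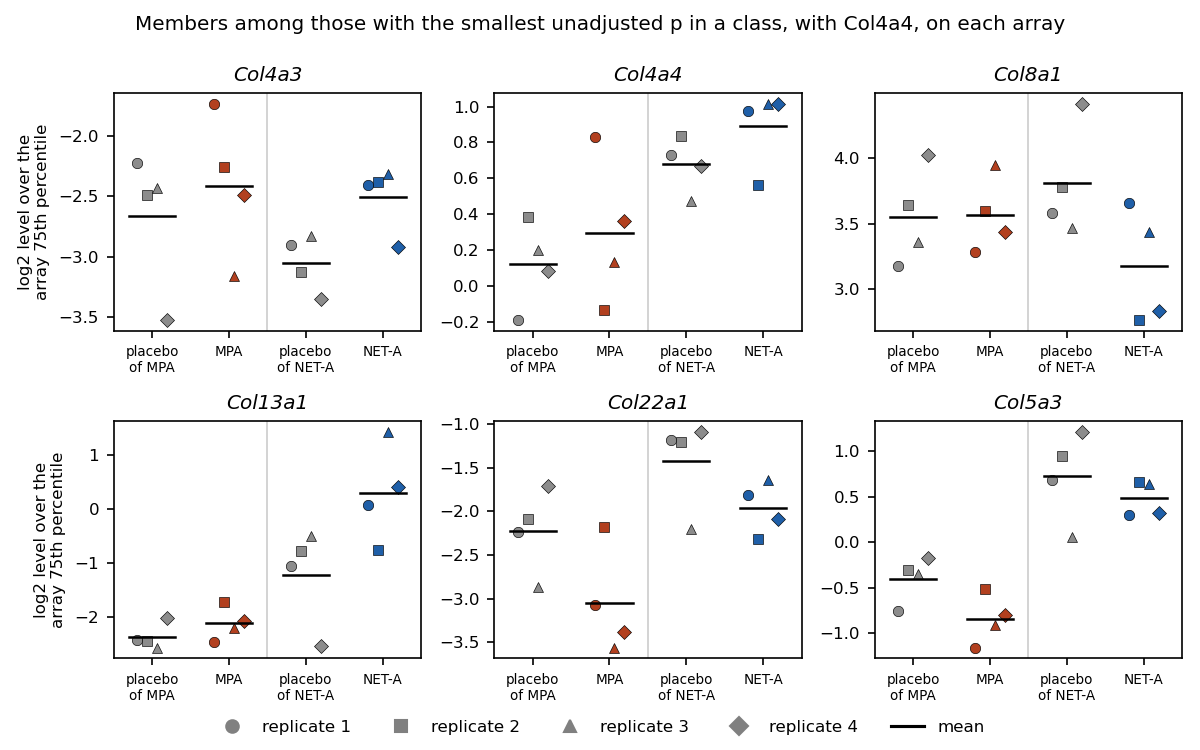
Log2 level over the 75th percentile of the array (vertical axis, scaled per gene) of Col4a3, Col4a4, Col8a1, Col13a1, Col22a1 and Col5a3 on each array, by group; marker shape gives the replicate and the line the group mean. In each panel at least 1 treated array lies within the range of its placebo group, as for NET-A replicate 4 of Col4a3 (-2.92) and NET-A replicate 2 of Col13a1 (-0.75).

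The change under MPA was set against the change under NET-A over all 16 arrays, as the first less the second. The labels give no doses, so these are the responses to the pellets used. Of 33 collagens tested 0 passed the threshold, beside 0% of 15012 genes. At an unadjusted p under 0.05 there were 2, both with a difference below 0, beside 6.70% of all genes (2.52% below 0). Of the 33, 19 had a difference below 0 and 14 above, beside 50.6% and 49.4% of all genes. These were Col8a2, with a difference of -0.64 ± 0.28 (adjusted p = 0.72; interval -1.22 to -0.05), and Col6a2, with -0.52 ± 0.24 (adjusted p = 0.74). The smallest p of the other classes gave 0.59 ± 0.62 for Col5a1, -0.46 ± 0.33 for Col12a1, -1.26 ± 0.61 for Col13a1 and 0.42 ± 0.39 for Col4a6. Without placebo replicate 2 of MPA the Col5a1 difference was -0.03. For Col1a1 the difference was -0.02 (interval -0.82 to 0.78) and for Col3a1 -0.34 (interval -1.25 to 0.56), so that a response 1 log2 unit lower under MPA than under NET-A was outside the first interval and inside the second. In all, 18 of the 33 intervals lay within 1 log2 unit of 0.

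Different probes of a gene did not always agree. Of the collagens with 2 or more probes tested, 8 of 17 under MPA and 9 of 22 under NET-A had probes of opposite sign. For Col1a1 under MPA the probe at the end of the gene gave -0.31 ± 0.30, a coding probe nearby -0.36 ± 0.17 and a coding probe near the front of the gene 0.44 ± 0.32; under NET-A the same probes gave -0.29 ± 0.21, -0.23 ± 0.17 and -0.85 ± 0.24. For Col3a1 the brightest probe gave -0.61 ± 0.36 under MPA and the others 0.09 ± 0.23 and 0.41 ± 0.18. Under NET-A the same Col3a1 probes gave -0.27 ± 0.18, -1.49 ± 0.85 and -0.45 ± 0.18, all below 0. The coding probes of Col1a1 are shown because they gave opposite signs under MPA. The first (chr11:94812052-94812111, mm9) lies in the sequence of the C-terminal propeptide and the second (chr11:94799277-94799336, mm9) in that of the N-terminal propeptide, both cut off as the fibril forms:
Col1a1 C-terminal: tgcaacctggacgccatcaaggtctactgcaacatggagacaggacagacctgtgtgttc
Col1a1 N-terminal: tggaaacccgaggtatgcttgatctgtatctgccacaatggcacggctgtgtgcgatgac
Whether the distance of a probe from the end of the transcript plays a part was not tested. No single probe of a collagen passed the threshold in either experiment when each was tested on its own.

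The spread between arrays of a group was wider in the MPA experiment, with a median SD within groups of 0.39 log2 units over the 33 tested collagens, against 0.28 over the 37 of the NET-A experiment. The widest in the MPA experiment were Col11a2 (SD 1.53), Col9a1 (1.37) and Col2a1 (1.17), genes of cartilage. This pattern was noticed in the data. Placebo replicate 4 of MPA was the highest of the 8 arrays for 13 of all 40 collagens. These included 6 of the 7 genes of collagens II, IX, X and XI, the collagens of cartilage matrix. Col2a1, the main one, read 1.72, 1.16, 0.38 and 3.64 in the placebo group of MPA and 1.87, 0.05, 1.74 and 0.50 under MPA. Col11a2 read -1.89, -2.31, -2.29 and 1.31 in placebo and -1.16, -3.49, -0.52 and -2.01 under MPA. Col9a1 was the exception, highest in MPA replicate 1. Col9a3, Col10a1 and Col11a1 were too dim to test in the MPA experiment. The summed level of 7 chondrocyte markers was 4.99 on placebo replicate 4 and 3.08 to 3.83 on the others of its group, and that of 4 osteoblast markers 0.77 against -3.54 to -1.90. All 4 osteoblast markers were too dim to test in the MPA experiment. Of the chondrocyte markers 3 were well above background on no array, and the sum was mostly Comp. Hapln1 was also highest there, at -1.21 against -4.47 to -2.68 on the other 7, but Sox9 (0.18) and Acan (-0.84) were not: placebo replicate 2 read 0.69 for Sox9 and MPA replicate 2 -0.63 for Acan. Comp, a cartilage matrix protein that smooth muscle also makes, read 4.88 there and 2.88 to 3.60 on the other placebo arrays. The macrophage marker sum was also highest there, 5.77 against 4.85 to 5.44. The changes of Col2a1 (-0.68 ± 0.68) and Col11a2 (-0.50 ± 0.89) under MPA became -0.05 and 0.37 without this array, and the part of cartilage, bone or macrophage RNA in them was not tested.

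**Figure D5:**
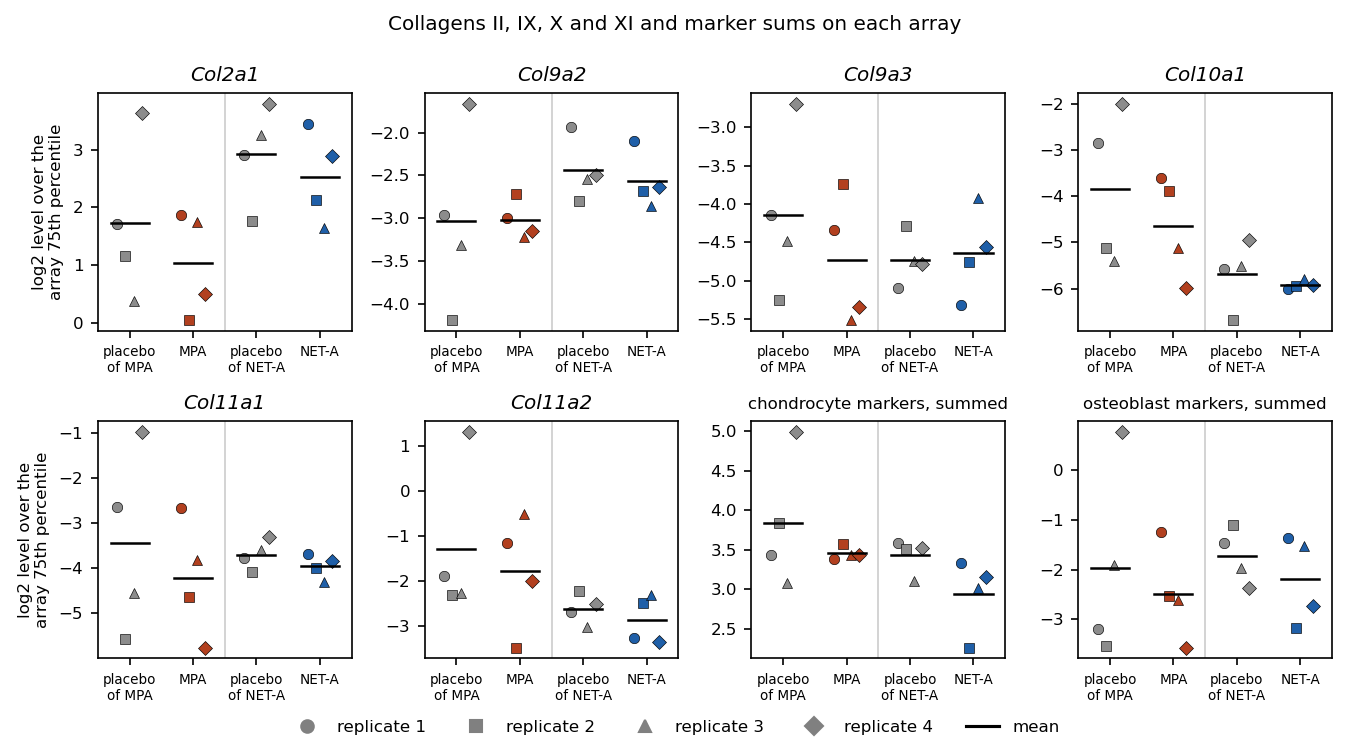
Log2 level over the 75th percentile of the array (vertical axis, scaled per panel) of Col2a1, Col9a2, Col9a3, Col10a1, Col11a1 and Col11a2, and log2 of the summed signal of chondrocyte and osteoblast markers, on each array by group; marker shape gives the replicate and the line the group mean. In the placebo group of MPA, replicate 4 lies above the other 7 arrays of its experiment in every panel, at 3.64 for Col2a1 and 1.31 for Col11a2. Col9a3, Col10a1, Col11a1 and the osteoblast markers were too dim to test in that experiment.

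A chain becomes a fibril only after hydroxylation and folding, export, removal of the propeptides and cross-linking, and is later bound by receptors or cut by collagenases. None of the genes listed for these steps passed the threshold. Of 16 tested genes of chain modification and folding 5 had an estimate above 0 and 11 below under MPA (median -0.10), and of 15 tested under NET-A 5 were above and 10 below (median -0.02). The smallest p under MPA was that of Lepre1, a prolyl 3-hydroxylase, which read 0.05, -0.07, -0.61 and -0.13 in placebo and -1.22, -1.62 and -0.62 in the 3 MPA arrays with a valid spot. The groups did not overlap and the change was -0.96 ± 0.27 (adjusted p = 0.80); Ppib, its cyclophilin partner, gave a change of -0.31 ± 0.20. Under NET-A P4ha2, a prolyl 4-hydroxylase subunit, ran from 2.96 to 3.42 in placebo and from 2.51 to 2.86 in treated arrays, again without overlap (-0.40 ± 0.15, adjusted p = 0.73), followed by Serpinh1, the collagen chaperone HSP47, at -0.33 ± 0.15.

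Among 4 tested cross-linking enzymes under MPA, Lox, the lysyl oxidase that starts cross-links, read 1.38, 1.39, 1.00 and 1.43 in placebo and 0.74, 0.82, 0.70 and 0.40 under MPA. Every MPA array was below every placebo array, and the change was -0.63 ± 0.16 (adjusted p = 0.76). Its relatives differed: Loxl1 gave a change of -0.18 ± 0.19 and Loxl2 one of 0.23 ± 0.25, and the list median was -0.11, with 1 estimate above and 3 below 0. Under NET-A Lox gave a change of -0.28 ± 0.14 and Loxl3 one of -0.15 ± 0.16, and the median of 5 genes was -0.15. All 8 genes tested for export and propeptide removal had estimates below 0 under MPA (median -0.19), from -0.26 ± 0.21 for Sec23a, a coat protein of export vesicles, and -0.25 ± 0.22 for Bmp1, the C-propeptide proteinase, up to values near 0; under NET-A 4 were above and 7 below (median -0.02), the smallest p values being those of Pcolce2, an enhancer of propeptide removal (0.20 ± 0.23), and Sparc, a collagen-binding matrix protein (-0.11 ± 0.13).

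Of the collagen receptors 4 of 9 had an estimate above 0 under MPA (median -0.05) and 3 of 9 under NET-A (median -0.11). Gp6, the platelet collagen receptor, read -2.66, -2.81, -2.30 and -2.71 in placebo and -2.23, -1.80, -0.61 and -2.21 under MPA, higher on every MPA array (0.91 ± 0.34, adjusted p = 0.80), and gave a change of 0.75 ± 0.30 under NET-A with overlap. Itga1 gave a change of 0.30 ± 0.22 under MPA, and Lair1, an inhibitory receptor of leukocytes, one of -0.85 ± 0.37 under NET-A. Of the collagen-cutting enzymes 4 of 5 were below 0 under MPA (median -0.48) and 5 of 6 under NET-A (median -0.26). Ctsk, the collagenolytic cathepsin K, gave a change of -0.65 ± 0.22 under MPA (adjusted p = 0.80) and Mmp2 one of -0.34 ± 0.19; under NET-A Mmp13 gave a change of -1.48 ± 0.67 and Mmp2 one of -0.41 ± 0.21.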

How the data were processed

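The 16 files hold the spot intensity of one-colour Agilent arrays annotated on mm9, read and background-subtracted, per the file headers, with Agilent Feature Extraction 10.7.1.1 (MPA experiment) or 11.0.1.1 (NET-A experiment). The deposited spot intensity is not normalized between arrays. A deposited table of log2 values had column medians from -0.027 to 0.016; its values followed probe-centred log2 signals of the arrays (r from 0.881 to 0.959), so its scale, centring and direction were inferred, and it served only as an alternative. Outlier spots (0.515%) were left out, no spot was saturated, log2 of the processed signal was set against the 75th percentile of the array over non-control probes, and spots of a probe were averaged. Each group was compared with the placebo group on its slides by limma 3.58.1 (lmFit, eBayes, two-sided, Benjamini-Hochberg over all genes tested) in R 4.3.3; ± in changes is the standard error. Exact permutations used numpy 2.4.6 and scipy 1.17.1. The number of arrays limits the precision: tested on simulated data, 37% of 2-fold changes (log2 size 1) were called in the MPA comparison and 43% in the NET-A comparison, and 87% and 80% at log2 size 2. In each simulation 100 genes changed by each size at once. Benjamini-Hochberg is stricter where fewer genes change, so these shares can overstate how often a few changed collagens would be called.

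The members, gene lists and rules were chosen with earlier results of these data known. Given array by array were Col1a1, Col1a2, Col3a1, Col4a1 and Col4a2 and, per class and comparison, the tested gene of smallest p with its brightest probe (none with groups apart). Of the pathway lists the 2 smallest p in each comparison with placebo were named. No pathway gene was named for the difference between the 2 responses. Col4a4, Col2a1, Col11a2, Col6a3, the array values of Lepre1, Lox and Gp6 and the genes named with a change alone were chosen after their values were seen. Col6a3 has no array name within the rule, so its pair with Col6a1 was not analysed here.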

Additional observations from a re-analysis of the deposited data

Results flagged for a closer look

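Of 139 sets of 4 arrays, each a tested collagen in 1 group, 8 had 1 array whose gap to its nearest neighbour exceeded Dixon's critical value as a share of the whole range; chance alone flags about 1 in 20 such sets. For Col11a2 it was placebo replicate 4 of MPA, at 1.31 with the next at -1.89 (0.883 of the range). For Col19a1 the same array was low, at -2.76 with the next at -2.18 (0.849). For Col22a1 placebo replicate 3 of NET-A was low, at -2.20 with the next at -1.20 (0.899). For Col12a1 placebo replicate 4 of NET-A was high, at -1.11 with the next at -1.59 (0.833). For Col4a3 NET-A replicate 4 was low, at -2.92 with the next at -2.41 (0.848), and for Col4a4 NET-A replicate 2, at 0.56 with the next at 0.98 (0.919). For Col3a1 NET-A replicate 1 was high, at 6.80 with the next at 6.29 (0.858), and for Col6a1 MPA replicate 1, at 3.84 with the next at 3.22 (0.831).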

How the results depend on the processing

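No collagen passed the threshold under any of the 23, 22 and 27 alternatives run for MPA, NET-A and the difference; the lowest adjusted p of a collagen was 0.10, 0.43 and 0.098. Over all genes 1 passed with the slide as a block under MPA, and for the difference 1 with the replicate number as a block and 1 without NET-A replicate 1. The replicate block gave 0 collagens in all 3 comparisons. Arrays with the same number did not consistently deviate together (r from -0.23 to 0.23 in the MPA experiment and from -0.33 to 0.33 in the NET-A experiment), so the numbers were not taken as pairs. Each NET-A array correlated highest with a placebo array of its own slide (r from 0.18 to 0.47), as did all MPA arrays but replicate 2. The main fits held no slide term, and the slide as a block gave 0 collagens in all 3 comparisons. Leaving out 1 array moved the median collagen change between -0.18 and -0.04 under MPA, between -0.15 and -0.01 under NET-A and between -0.15 and 0.04 for the difference; over the other settings it ran from -0.16 to 0.0023, from -0.16 to -0.04 and from -0.11 to 0.11.

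Of 24 changes of named genes, 13 kept their sign throughout. For MPA, Col1a2 became 0.039 by quantile normalization, 0.019 in the deposited table and 0.047 within slide 2, Col4a1 became 0.042, 0.030 and 0.073, and Col22a1 0.46 by normexp. For NET-A, normexp, which moved the median of all genes to -0.13, gave 0.0058 for Col1a2, 0.13 for Col4a1, 0.038 for Col4a2 and -0.066 for Col4a3; averaged probes gave 0.013 for Col4a2, and slide 5 gave 0.0068 for Col4a1 and 0.025 for Col4a2. For the difference, normexp gave 0.11 for Col8a2, 0.30 for Col12a1 and -0.16 for Col4a6, and averaged probes 0.35 for Col12a1 and -0.084 for Col4a6. Without 1 array, Col1a2 ran from -0.25 to 0.059 and Col4a1 from -0.18 to 0.083 under MPA, Col1a2 from -0.25 to 0.064, Col4a1 from -0.10 to 0.13 and Col4a2 from -0.15 to 0.027 under NET-A, and the difference of Col5a1 from -0.033 to 0.91. The cause of these turns was not tested. Testing every probe on its own was added after the data were seen.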
